A study of Mus musculus with 2 samples.

Results

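The H2-Mv genes are a small cluster of non-classical class I genes of the mouse major histocompatibility complex (MHC), and 9 of the 32285 genes in the deposited table make up the family as described here: H2-M1, H2-M9, H2-M10.1 to H2-M10.6 and H2-M11. They were chosen by name, not by a measured value, and are described across the mature and immature neurons and the other cells of the vomeronasal organ (VNO), together with the Vmn2r receptor genes of the same cells. The study dissociated whole VNO of wild-type C57BL/6J males at P60 into single cells and made 2 droplet-based libraries, in which each counted unique molecular identifier (UMI) stands for 1 captured mRNA molecule. Both libraries form 1 group with no treatment or mutation. The labels give 5 organs for each library, while the study's methods give 5 mice in all, so the libraries may share animals, and the p-values below measure only the spread between these 2 libraries, which may be technical. The libraries held 12814 and 11270 barcodes with 108005626 and 95442231 UMIs, and 5694 and 4897 cells passed the quality filter.

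Vomeronasal sensory neurons (VSNs) fall into an apical population, which carries the G protein subunit Gnai2 and receptors of the Vmn1r family, and a basal population, which carries Gnao1 and receptors of the Vmn2r family. Most basal neurons combine 1 highly expressed Vmn2r gene with members of a broadly expressed group called family C, Vmn2r1 to Vmn2r7. H2-Mv proteins are known from a subset of basal neurons, where they are class I heavy chains that can pair with the light chain B2m, and their function is not settled.

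All 9 genes lie on chromosome 17 within the MHC and are annotated as protein-coding with 5 or 6 exons (GRCm38, GENCODE). On the reverse strand H2-M10.2 spans chr17:36284227-36286490, H2-M10.1 spans chr17:36322858-36326155, H2-M10.3 spans chr17:36365003-36368417 and H2-M10.4 spans chr17:36458917-36462334. H2-M11 follows on the forward strand at chr17:36547075-36549250. H2-M9 at chr17:36639285-36642666 and H2-M1 at chr17:36670008-36672219 are again on the reverse strand. H2-M10.5 at chr17:36772910-36776234 and H2-M10.6 at chr17:36812171-36815564 close the row on the forward strand.

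The members are close paralogs, which bears on the counts because reads that match more than 1 gene could be dropped or divided by the counting. H2-M10.3 and H2-M10.5 were the nearest pair of transcripts, with 91.2% identity, and H2-M10.4 and H2-M10.6 were 89.0% identical. Of the windows of 50 bases in the last 500 bases of each transcript, where this assay reads, 29.3% of those of H2-M10.2, 21.3% of those of H2-M10.5 and 13.1% of those of H2-M10.3 also occurred in another gene. In the remaining members this share was between 0% and 2.88%. The annotation also gives no bases after the stop codon for H2-M1 and H2-M11 and 54 bases for H2-M10.2, against 368 to 594 bases for the other 6, and the part of this in their low counts was not tested.

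Promoter stretches are shown for the members that the cell-by-cell results below set side by side: the 4 genes of 1 kind of basal neuron first, then H2-M10.4, which was found in both kinds, and the pair H2-M9 and H2-M1. Each line is the coding strand of 100 bases, from 130 to 31 bases before the gene start, from RefSeq on GRCm38.p6, and capitals mark the letters CCAAT and TACGTCA. For H2-M9 the outermost of the listed starts was used.
H2-M10.1 (chr17:36326181-36326280, reverse): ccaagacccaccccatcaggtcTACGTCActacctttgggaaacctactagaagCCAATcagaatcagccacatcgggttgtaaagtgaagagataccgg
H2-M10.3 (chr17:36368448-36368547, reverse): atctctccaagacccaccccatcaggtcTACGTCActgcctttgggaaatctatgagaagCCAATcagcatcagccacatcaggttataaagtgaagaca
H2-M10.5 (chr17:36772780-36772879, forward): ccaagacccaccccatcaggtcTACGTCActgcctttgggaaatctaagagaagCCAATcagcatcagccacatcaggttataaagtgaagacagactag
H2-M10.6 (chr17:36812045-36812144, forward): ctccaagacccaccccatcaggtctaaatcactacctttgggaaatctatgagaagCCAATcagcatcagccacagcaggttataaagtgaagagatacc
H2-M10.4 (chr17:36462360-36462459, reverse): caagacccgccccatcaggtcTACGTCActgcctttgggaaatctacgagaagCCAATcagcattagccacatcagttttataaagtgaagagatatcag
H2-M9 (chr17:36642694-36642793, reverse): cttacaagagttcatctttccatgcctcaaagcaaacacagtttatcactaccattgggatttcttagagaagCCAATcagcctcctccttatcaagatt
H2-M1 (chr17:36672228-36672327, reverse): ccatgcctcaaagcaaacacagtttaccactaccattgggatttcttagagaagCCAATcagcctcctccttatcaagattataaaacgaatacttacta

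The promoters resembled each other. Over the promoters of 300 bases, H2-M10.3 and H2-M10.5 were 95.2% identical and H2-M1 and H2-M9 were 92.5% identical, although the transcripts of H2-M1 and H2-M9 were only 73.1% identical. CCAAT was present in all 9 members, starting 57 to 82 bases before the gene start, and in 37.4% of 32851 RefSeq promoters of the same length. TACGTCA was present in H2-M10.1, H2-M10.3, H2-M10.4 and H2-M10.5, against 1.27% of all promoters, and TTATAAA in every member but H2-M10.1 and H2-M11, against 4.01%. These 3 strings were chosen after the sequences had been seen. Of 4 other strings searched on both strands, GCCNNNGGC (16.6% of all promoters), TAATTA (5.29%), the palindromic Olf/Ebf site (0.904%) and the core of the interferon-stimulated response element (3.44%), each was in 0 of the 9 members. A match is a string of letters in this window and no evidence of binding.

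Neurons were sorted into classes by clustering without the H2-Mv genes and without the vomeronasal receptor genes. The mature Gnao1 class held 104 cells, 53 in library 1 and 51 in library 2, with Omp, the marker of mature sensory neurons, at 765 CPM (UMIs of the gene per 1000000 UMIs of the class), Gnao1 at 352 CPM and Gnai2 at 77.4 CPM. The immature Gnao1 class held 156 cells (92 and 64), with the growth-cone gene Gap43 at 1202 CPM and Omp at 21.0 CPM. The mature Gnai2 class held 515 cells (288 and 227) with Gnai2 at 3792 CPM and Gnao1 at 2.42 CPM, and the immature Gnai2 class held 231 cells (131 and 100). In the mature Gnao1 cells every listed marker of tuft, olfactory, B, monocyte and dendritic cells was at 0, and the 4 sustentacular markers summed to 10.9 and 18.4 CPM. Other lists were above 0. The 4 non-sensory epithelial markers summed to 2044 and 2087 CPM, against 152 and 177 CPM in mature Gnai2 neurons, and the 4 ciliated markers to 288 and 234 CPM, against 57.0 and 56.0 CPM. The 4 fibroblast markers summed to 151 and 8.57 CPM, the 5 macrophage markers to 9.84 and 61.2 CPM and the 4 gland markers to 165 and 116 CPM, the last below or near the 243 and 119 CPM of mature Gnai2 neurons. The part of these markers in the results was not tested.

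H2-Mv transcripts were found almost entirely in mature Gnao1 neurons among the 4 neuron classes. The 9 genes together reached 1797 CPM in library 1 and 1669 CPM in library 2 in mature Gnao1 neurons. They stood at 5.94 and 11.1 CPM in immature Gnao1 neurons, 3.71 and 2.01 CPM in mature Gnai2 neurons, and 0.774 and 9.07 CPM in immature Gnai2 neurons. The mature Gnao1 class, 104 of 10591 cells, held 3006 of the 4426 H2-Mv UMIs of all cells (67.9%). In such pooled sums more cells of a kind and more RNA per cell cannot be told apart.

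At least 1 H2-Mv UMI was detected in 58 of 104 mature Gnao1 neurons (55.8%, exact 95% interval 45.7 to 65.5), in 34 of 53 in library 1 (64.2%) and in 24 of 51 in library 2 (47.1%). Mature Gnai2 neurons, which are not known to use these genes, were taken as the background: 13 of 515 cells (2.52%, 1.35 to 4.28), with a median of 13575 UMIs per cell against 17026 in mature Gnao1 neurons. Some of these 13 cells had more UMIs of Vmn2r2 to Vmn2r7 than of Vmn2r1, and they held up to 4 H2-Mv UMIs. Whether these counts are background was not tested. The share was 9 of 156 (5.77%, 2.67 to 10.7) in immature Gnao1 neurons, at a median of 8679 UMIs, and 2 of 231 (0.866%, 0.105 to 3.09) in immature Gnai2 neurons, at a median of 9166 UMIs. With every cell thinned to 5000 UMIs, the shares were 50 of 100, 9 of 509 (1.77%), 5 of 145 (3.45%) and 1 of 215 in the order mature Gnao1, mature Gnai2, immature Gnao1 and immature Gnai2. These intervals cover counting error only.

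H2-M10.1, H2-M10.3, H2-M10.4, H2-M10.5 and H2-M10.6 made up nearly all of the level in mature Gnao1 neurons. H2-M10.5 stood at 526 and 337 CPM in libraries 1 and 2 (481 and 275 UMIs). H2-M10.1 stood at 436 and 283 CPM (399 and 231 UMIs) and H2-M10.3 at 330 and 203 CPM (302 and 166 UMIs). H2-M10.6 stood at 283 and 189 CPM (259 and 154 UMIs) and H2-M10.4, alone of the 5 in being higher in library 2, at 215 and 343 CPM (197 and 280 UMIs). The ranges of neighbouring genes in this order overlapped between the libraries, so the order within these 5 is not resolved. A UMI count does not scale with transcript length, so the levels are set side by side per molecule.

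The other 4 members were low or came from few cells. H2-M9 was at 0 in library 1 and 271 CPM in library 2, where 2 cells held all 221 UMIs and the cell with most of them held 71.0%. H2-M1 was at 0 and 28.2 CPM, 23 UMIs in 3 cells. H2-M10.2 was at 5.47 and 11.02 CPM, with 14 UMIs in 14 cells and never more than 1 in a cell. H2-M11 was at 0 and 4.90 CPM, 4 UMIs in 2 cells. Library 1 was not without H2-M9: over all barcodes before the filter it held 147 UMIs in 6 barcodes, against 353 in 12 barcodes in library 2.

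**Figure D1:**
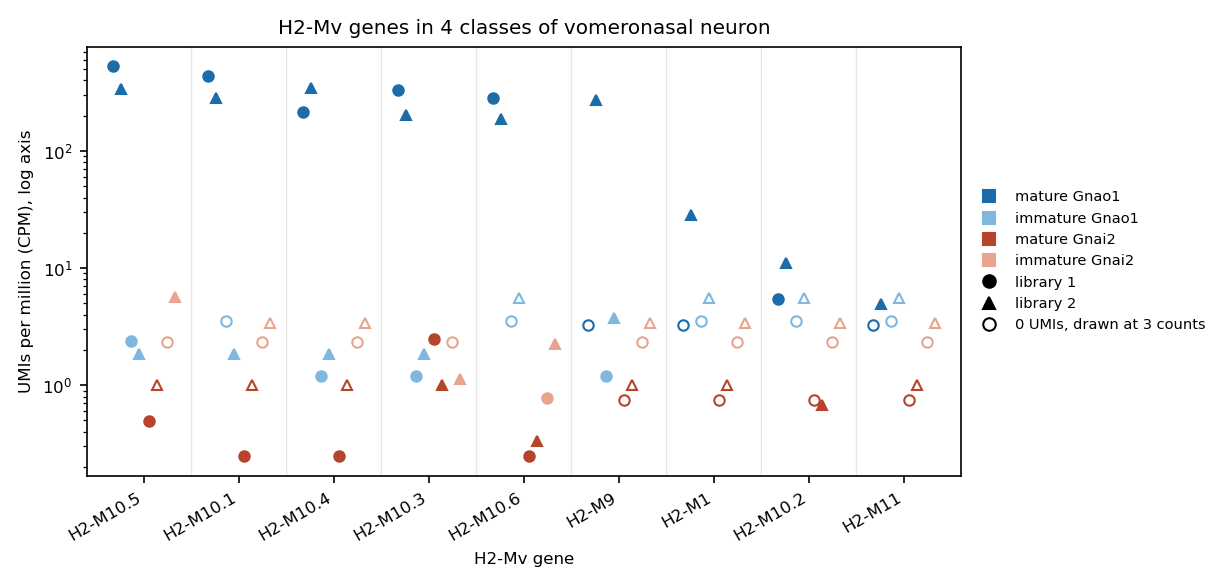
Level of each H2-Mv gene (CPM, log axis) in mature and immature Gnao1 and Gnai2 neurons, 1 symbol per library; open symbols are sums with 0 UMIs, drawn at the level of 3 counts. The H2-M10 genes other than H2-M10.2 sit between 189 and 526 CPM in both libraries of mature Gnao1 neurons, while H2-M9 has UMIs there in library 2 alone.

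The first test set mature Gnao1 against mature Gnai2 neurons, on UMIs summed per library and class, with edgeR's quasi-likelihood test and Benjamini-Hochberg adjustment over 12279 genes. Of the 8 members that reached the minimum of 10 UMIs, 6 were higher in mature Gnao1 neurons, where 6.25% of all genes tested were called higher. None of the 8 was lower, against 4.3% of all genes. All but H2-M10.3 reached the minimum through mature Gnao1 neurons alone, so a lower call could not occur for them. The shares over all genes are therefore no measure for these members. In every one of the 6 both mature Gnao1 libraries lay above both mature Gnai2 libraries.

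H2-M10.3 was the member with most UMIs in mature Gnai2 neurons, 10 and 3 (2.48 and 1.007 CPM), and its log2 fold change was 7.23 ± 0.38 (SE, adjusted p = 2.49e-05). The other called members had 3 or fewer UMIs over 515 mature Gnai2 cells, so the ratio of levels is given with its exact counting interval. It was 2555 for H2-M10.1 (457 to 101000, adjusted p = 8.73e-06), 1934 for H2-M10.4 (345 to 76600, adjusted p = 9.93e-06) and 1533 for H2-M10.5 (423 to 12700, adjusted p = 1.16e-05). With classes set by a gate on Gnao1, Gnai2, Omp and Gap43 UMIs in place of clusters, H2-M10.1 moved from a log2 fold change of 10.90 to 6.69 (adjusted p = 0.0136, edgeR), and the log2 ratio of the 9 genes together from 8.77 to 7.53. For H2-M10.6 the ratio was 837 (230 to 6940, adjusted p = 7.42e-06) and for H2-M10.2, with 2 UMIs in mature Gnai2 neurons, 28.4 (6.52 to 257, adjusted p = 0.0247).

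H2-M9 and H2-M1 had 0 UMIs in mature Gnai2 neurons and in library 1 of mature Gnao1 neurons, so their libraries did not separate from the other class. H2-M9 was at least 299-fold higher and H2-M1 at least 31.1-fold higher in mature Gnao1 neurons against a floor of 3 counts over the class, without passing the test (adjusted p = 0.052 and 0.0679). With the library as a block, both passed (adjusted p = 3.67e-20 and 9.5e-06). Library 1 held 0 UMIs of either gene in both classes. That fit therefore rests on library 2 alone for these genes, with 221 UMIs of H2-M9 and 23 of H2-M1 in mature Gnao1 neurons. Its p-values hold no spread between libraries and do not settle the difference. H2-M11, with 4 UMIs against 0, was below the minimum and was not tested.

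The second test set mature against immature Gnao1 neurons over 10733 genes and used the same mature Gnao1 sums as the first. Of the 8 members tested 7 were higher in mature neurons, beside 19% of all genes, and 0 were lower, beside 16.1%. All 8 reached the minimum of 10 UMIs through the mature cells alone, so a lower call could not occur. The shares over all genes are therefore no measure for them. The 156 immature cells held 11 H2-Mv UMIs: 3 each of H2-M9 and H2-M10.5, 2 each of H2-M10.3 and H2-M10.4, and 1 of H2-M10.1.

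The ratio of mature to immature level was 502 for H2-M10.1 (89.8 to 19900, adjusted p = 2.18e-07), 201 for H2-M10.5 (68.5 to 977, adjusted p = 6.42e-08) and 190 for H2-M10.4 (52.4 to 1570, adjusted p = 1.82e-07). For H2-M10.3 it was 187 (51.4 to 1550, adjusted p = 2.71e-07). H2-M10.6 and H2-M10.2 had 0 UMIs in immature cells and were at least 110-fold (adjusted p = 5.47e-07) and at least 3.72-fold higher (adjusted p = 0.0125) in mature cells. For H2-M10.2 DESeq2 gave no adjusted p. H2-M9, with UMIs in both immature libraries (1 and 2) and in library 2 alone of the mature cells (221), had a ratio of 58.7 (19.8 to 287, adjusted p = 0.0219), which DESeq2 did not call (adjusted p = 0.261). H2-M1, with UMIs in library 2 alone, was at least 6.11-fold higher and did not pass (adjusted p = 0.0616). It passed with the library as a block (adjusted p = 0.000283), a fit that rests on library 2 alone for this gene. H2-M11 was not tested.

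Family C Vmn2r genes differed between the same stages, and Vmn2r1 was the only one with UMIs in both immature libraries. Vmn2r1 was at 140 and 175 CPM in mature and at 35.7 and 55.7 CPM in immature Gnao1 neurons, a log2 fold change of 1.86 ± 0.25 (SE, adjusted p = 0.000168). Vmn2r2 was at 199 and 190 against 15.4 and 0 CPM (4.43 ± 0.52, adjusted p = 6.35e-05), which DESeq2 did not call (adjusted p = 0.0815), and Vmn2r3 was at 132 and 124 against 7.13 and 0 CPM (4.89 ± 0.48, adjusted p = 1.78e-05). Vmn2r4 (225 and 122 CPM in mature cells) and Vmn2r6 (294 and 249 CPM) had 0 UMIs in immature cells and were at least 81.3-fold and at least 125-fold higher in mature cells (adjusted p = 3.2e-06 and 9.25e-08). Vmn2r7 stood at 366 and 383 CPM in mature cells against 1 UMI in immature cells, a ratio of 517 (92.4 to 20400, adjusted p = 2.13e-08). All 6 family C genes tested were higher in mature neurons, and Vmn2r5 had 5 UMIs in mature cells and was not tested. Of 66 other Vmn2r genes tested 40 were higher and 11 were lower in mature neurons.

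The third test set immature Gnao1 against immature Gnai2 neurons, in which 3.61% of 11012 genes were called higher and 4.02% lower. None of the 9 members reached the minimum of 10 UMIs, with 11 H2-Mv UMIs on the Gnao1 side and 9 on the Gnai2 side, of which 8 were in 1 cell. A difference between these immature classes was therefore not detectable at this depth. Vmn2r1 did differ between them, with 35.7 and 55.7 against 4.64 and 4.54 CPM (log2 fold change 3.30 ± 0.41, SE, adjusted p = 0.00024).

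Within the mature Gnao1 class the members were spread unevenly over cells. H2-M10.3 was the most widespread, with a UMI in 42 cells, and no cell held more than 28 of them. H2-M10.5 and H2-M10.6 were each in 23 cells with at most 152 and 47 UMIs in a cell, H2-M10.4 in 17 cells with at most 118, and H2-M10.1 in 10 cells with at most 131. H2-M10.1 was thus rare but high where it was found, with a median of 52.5 UMIs in its 10 cells, against 9 for H2-M10.3. The 48 cells with 3 or more H2-Mv UMIs, called H2-Mv-positive here, held 4 to 321 of them, with a median of 26.5, or 1491 CPM of the cell.

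Many neurons with an H2-Mv gene had more than 1. No member was detected in 46 mature Gnao1 neurons, 1 in 24, 2 in 9, 3 in 8, 4 in 15 and 5 in 2. More than 1 member was therefore found in 34 of 58 cells (58.6%, 44.9 to 71.4), in 17 of 34 in library 1 and 17 of 24 in library 2 (70.8%). Counting a member only from 2 UMIs, the share was 28 of 51 (54.9%, 40.3 to 68.9).

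The combinations were largely nested in mature Gnao1 neurons. Counting a member from 2 UMIs, the 10 cells with H2-M10.1 all had H2-M10.3 and H2-M10.6 as well, and 8 of them had H2-M10.5. The 18 cells with H2-M10.5 all had H2-M10.3, and 14 had H2-M10.6. Of the 22 cells with H2-M10.6, 19 had H2-M10.3. The reverse did not hold for H2-M10.3, the only member in 14 of its 40 cells. All 4 genes were found together in 8 cells, H2-M10.3 with H2-M10.5 and H2-M10.6 in 4 and H2-M10.3 with H2-M10.5 in 3. Because H2-M10.3 and H2-M10.5 share part of their last 500 bases, the share of their joint detection that comes from shared reads was not tested.

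H2-M10.4 followed another pattern. Of its 14 cells with 2 or more UMIs, 5 had no other member, 7 had H2-M10.3, and 0 had H2-M10.1. Both cells with H2-M9 had H2-M10.4 and H2-M1, and both came from library 2. The first held 157 UMIs of H2-M9, 118 of H2-M10.4, 9 of H2-M1 and 3 of H2-M11, and its leading receptor was Vmn2r82 with 318 UMIs. The other held 64, 32, 12 and 1 UMIs of the same genes and led with Vmn2r20 at 245 UMIs. The third cell with H2-M1 had 2 UMIs of it, led with Vmn2r23 and had no H2-M9.

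**Figure D2:**
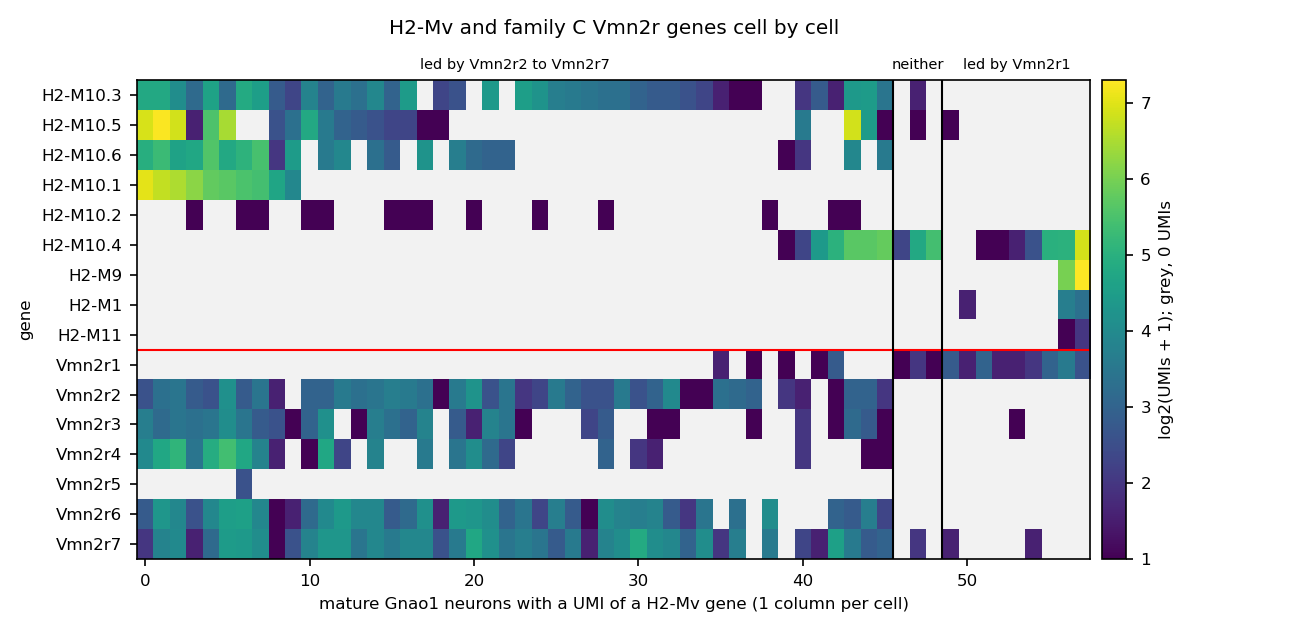
The 58 mature Gnao1 neurons with an H2-Mv UMI, 1 column per cell, with log2(UMIs + 1) of the 9 H2-Mv genes and of Vmn2r1 to Vmn2r7 as colour; columns are divided by the side of family C with more UMIs. Among the 46 cells led by Vmn2r2 to Vmn2r7, H2-M10.3 is in 41, H2-M10.6 in 23, H2-M10.5 in 21 and H2-M10.1 in 10, and H2-M9 and H2-M1 appear among the 9 cells led by Vmn2r1.

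Family C divides basal neurons into cells with Vmn2r1 and cells with Vmn2r2 to Vmn2r7, and the H2-Mv genes were unevenly divided between them. A cell was assigned to the side with more UMIs, at least 2, which gave 40 cells led by Vmn2r1, 56 led by Vmn2r2 to Vmn2r7 and 8 led by neither. Of the cells led by Vmn2r2 to Vmn2r7, 41 of 56 were H2-Mv-positive (73.2%, 59.7 to 84.2), against 4 of 40 led by Vmn2r1 (10.0%, 2.79 to 23.7). The shares were 89.3% against 8.7% in library 1 and 57.1% against 11.8% in library 2, so both libraries showed the same order, with a larger gap in library 1. With cells of up to 10% mitochondrial UMIs, 41 of 61 (67.2%) were positive against 10 of 59 led by Vmn2r1 (16.9%, 8.44 to 29.0). The summed level of the sides differed between the libraries. The log2 ratio of the 9 genes together was 1.90 over both, 4.88 in library 1 and 0.32 in library 2, where H2-M9 and H2-M10.4 were high on the Vmn2r1 side. Median depths were 17768.5 and 16100.5 UMIs. After thinning to 5000 UMIs the sides were assigned anew from the thinned counts, which left 20 of the 40 cells on the Vmn2r1 side. The shares were then 33 of 50 (66.0%) and 2 of 20 (10.0%, 1.235 to 31.7).

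The same division was then tested gene by gene, in a comparison added after the data had been seen. It was run over 9082 genes, of which 0.341% were called higher and 0.11% lower on the Vmn2r2 to Vmn2r7 side. Among the 8 members tested, H2-M10.1, H2-M10.3, H2-M10.5 and H2-M10.6 were higher on the Vmn2r2 to Vmn2r7 side, 0 were lower and 4 did not pass. In each of the 4 called genes both libraries of the Vmn2r2 to Vmn2r7 side lay above both libraries of the Vmn2r1 side. All members tested but H2-M10.4 reached the minimum of 10 UMIs through 1 side alone, so a call in the other direction could not occur for them. The shares over all genes are therefore no measure for these members.

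H2-M10.3 had 598 and 340 CPM in cells led by Vmn2r2 to Vmn2r7 and 0 UMIs in those led by Vmn2r1, at least 103-fold higher (adjusted p = 0.00016). With cells of up to 10% mitochondrial UMIs its log2 fold change was 3.91 (adjusted p = 0.00395), in place of a fitted 10.61. It was detected in 41 of 56 cells against 0 of 40, for which the exact interval reaches 8.81%. H2-M10.1 had 790 and 479 CPM against 0 (at least 139-fold higher, adjusted p = 6.86e-05), in 10 cells. H2-M10.6 had 513 and 319 CPM against 0 (at least 90.9-fold higher, adjusted p = 0.000123), in 23 cells. H2-M10.5 had 950 and 568 CPM against 1 UMI in 1 cell (ratio 498, 89.1 to 19700, adjusted p = 3.95e-05).

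H2-M10.4 was found on both sides, with 220 and 213 CPM in 7 cells led by Vmn2r2 to Vmn2r7 and 101 and 587 CPM in 7 cells led by Vmn2r1. Its groups overlapped, and its log2 fold change of -0.61 ± 0.58 (SE) did not pass (adjusted p = 0.895). With cells of up to 10% mitochondrial UMIs the change was -1.58 and passed (adjusted p = 0.0424). A further 73 UMIs of H2-M10.4 were in 3 of the 8 cells led by neither side.

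All cells with H2-M9 (2), H2-M1 (3) and H2-M11 (2) were led by Vmn2r1, and all were in library 2. H2-M9 stood at 0 and 864 CPM on the Vmn2r1 side and at 0 in both libraries of the other, at least 112-fold lower there, without passing (adjusted p = 0.345). H2-M1 stood at 0 and 90.0 CPM against 0 (adjusted p = 0.508). Both passed with the library as a block (adjusted p = 6.76e-64 and 8.39e-08). Library 1 held 0 UMIs of either gene on both sides. The block fit therefore rests on library 2 alone for them, and its p-values hold no spread between libraries. DESeq2 called H2-M9 (adjusted p = 0.000119) at a fitted log2 fold change of -23.48, against -10.42 with edgeR. H2-M10.2, with 14 UMIs in 14 cells led by Vmn2r2 to Vmn2r7 and 0 elsewhere, passed with the block alone (adjusted p = 0.333 without and 0.0412 with it).

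**Figure D3:**
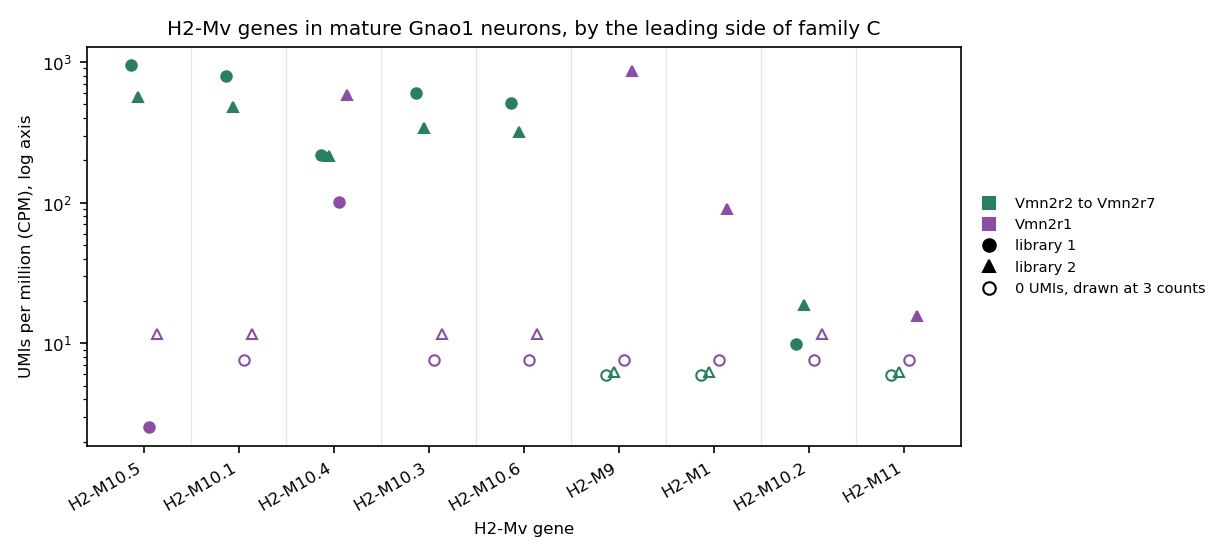
Level of each H2-Mv gene (CPM, log axis) in mature Gnao1 neurons led by Vmn2r2 to Vmn2r7 and by Vmn2r1, 1 symbol per library; open symbols are sums with 0 UMIs, drawn at the level of 3 counts. H2-M10.1, H2-M10.3, H2-M10.5 and H2-M10.6 are at 319 CPM or more in both libraries of the first group and at 0 to 2.52 CPM in the second, and H2-M10.4 overlaps.

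The fourth comparison asked which genes accompany the H2-Mv genes, setting 48 H2-Mv-positive neurons (29 and 19 per library, median 18120.5 UMIs) against 46 with no H2-Mv UMI (19 and 27, median 15439 UMIs). The members define these groups and are no result here. Of 8920 genes, 0.527% were called higher and 0.146% lower in H2-Mv-positive cells. The part of the lower depth of the negative cells in their zeros was not tested. A receptor can pass this test through very few cells, so the number of cells led is given for each receptor called outside family C.

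Among family C, Vmn2r2, Vmn2r3, Vmn2r4 and Vmn2r6 were higher and Vmn2r1 was lower in H2-Mv-positive cells. Of the H2-Mv-positive cells, 41 were led by Vmn2r2 to Vmn2r7 and 4 by Vmn2r1. The family C result is therefore not independent of the shares and the test by side given above, which used the same cells. Vmn2r4 had 384 and 310 CPM in positive and 0 UMIs in negative cells, at least 82.7-fold higher (adjusted p = 3.93e-06). Vmn2r3 had 224 and 297 against 0 and 10.06 CPM (log2 fold change 5.47 ± 0.50, SE, adjusted p = 9.85e-05). Vmn2r6 had 496 and 480 against 10.0 and 57.8 CPM (3.79 ± 0.43, adjusted p = 0.00071) and Vmn2r2 had 326 and 344 against 13.4 and 50.3 CPM (3.35 ± 0.38, adjusted p = 0.00071). In these 4 genes the libraries did not overlap between the groups.

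Vmn2r1 went the other way, with 22.4 and 80.5 CPM in positive and 328 and 282 CPM in negative cells (log2 fold change -2.62 ± 0.40, SE, adjusted p = 0.0104). DESeq2 did not call it (adjusted p = 0.205). Vmn2r7 had 579 and 573 against 73.6 and 256 CPM, and its log2 fold change of 1.81 ± 0.38 did not pass (adjusted p = 0.0663) except with the library as a block (adjusted p = 3.42e-26).

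The other Vmn2r genes were judged by the receptor that led each cell. A single leading Vmn2r gene with 2 or more UMIs was found in 97 of 104 mature Gnao1 neurons, spread over 51 genes, and 22 cells had a second Vmn2r gene at 2 or more UMIs. With so many receptors for so few cells, no receptor led more than 6 cells. Of 48 other Vmn2r genes tested, 8 were higher in H2-Mv-positive cells (Vmn2r20, Vmn2r39, Vmn2r43, Vmn2r66, Vmn2r88, Vmn2r89, Vmn2r114 and Vmn2r122) and 3 were lower (Vmn2r18, Vmn2r78 and Vmn2r90). Vmn2r114 led 4 cells, of which 3 were positive, Vmn2r66 led 2, both positive, and Vmn2r43 led fewer than 2.

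The cells led by Vmn2r122 held more H2-Mv UMIs than those led by any other receptor. All 4 cells led by Vmn2r122, 2 in each library, had H2-M10.1, H2-M10.3, H2-M10.5 and H2-M10.6, and together held 849 H2-Mv UMIs. H2-M10.1 had 54 and 104 UMIs in the cells of library 1 and 73 and 91 in those of library 2, and H2-M10.5 had 46, 152, 2 and 116 in the same order. Vmn2r122 had 18, 17, 159 and 12 UMIs in that order, so its lead was low in 3 of the 4 cells. With the same 4 members, 2 cells led by H2-M10.1 had no UMI of any counted Vmn2r gene outside family C. Whether another receptor led any of these cells was not tested. Vmn2r122 itself was at 65.2 and 635 CPM in H2-Mv-positive cells and at 0 in negative cells, at least 64.9-fold higher (adjusted p = 0.0216), which DESeq2 did not call (adjusted p = 0.191).

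Vmn2r88 led 3 cells, all with H2-M10.6 and 1 with H2-M10.1, and was at least 360-fold higher in H2-Mv-positive cells (836 and 2735 CPM against 0, adjusted p = 3.1e-05). Vmn2r89 led 2 cells, both of library 1, with H2-M10.3, H2-M10.5 and H2-M10.6, and was at least 207-fold higher (adjusted p = 0.015, or 0.116 with DESeq2). H2-M10.3 was the member of the 3 cells led by Vmn2r13 and of 3 of the 4 cells led by Vmn2r39, with 17 and 27 UMIs in all and no other member at 2 UMIs. Vmn2r39 was at 617 and 387 against 0 and 80.5 CPM (log2 fold change 3.57 ± 0.67, SE, adjusted p = 0.0348), which DESeq2 did not call (adjusted p = 1).

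Receptors that led cells without any H2-Mv UMI included Vmn2r18 and Vmn2r108, in 4 of 4 cells each, and Vmn2r78, Vmn2r90 and Vmn2r105, in 2 of 2 cells each. Vmn2r18 was at 0 in H2-Mv-positive cells and at 1237 and 267 CPM in negative cells, at least 196-fold lower (adjusted p = 0.00071). Vmn2r78 and Vmn2r90 were at least 107-fold and at least 93.3-fold lower (adjusted p = 2.4e-05 and 8.67e-06). Family C did not settle the matter alone, since both cells led by Vmn2r78 were on the Vmn2r2 to Vmn2r7 side and had no H2-Mv UMI, while 2 of the 6 cells led by Vmn2r20 were positive on the Vmn2r1 side. Vmn2r20 was at 358 and 759 against 20.1 and 108 CPM (log2 fold change 3.07 ± 0.50, SE, adjusted p = 0.015), and its adjusted p with DESeq2 was 0.606.

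Vmn2r-ps159, at rank 2 of the named genes called higher, was outside the set of Vmn2r genes counted above. Genes without a receptor name were few among the largest changes, and whether Gm14496 below encodes a receptor was not examined. Gng13, a G protein gamma subunit, was at 26.1 and 9.29 CPM in H2-Mv-positive and at 187 and 106 CPM in negative cells (log2 fold change -2.83 ± 0.42, SE, adjusted p = 0.0075). Gm14496 was at 3.73 and 6.19 against 191 and 251 CPM (log2 fold change -5.43, adjusted p = 9.85e-06). Neither gene overlapped between the groups.

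Genes of MHC class I assembly were compared next, from a list of 21 genes that holds the light chain B2m, the peptide transporter Tap1 and Tap2, the chaperones Tapbp, Tapbpl, Calr, Canx and Pdia3, classical heavy chains and other class I genes. Between mature Gnao1 and mature Gnai2 neurons 3 of 15 tested were higher, 1 was lower and 11 did not pass, with a median log2 fold change of 0.49 against -0.04 over all genes. B2m was at 528 and 617 against 131 and 141 CPM (2.16 ± 0.10, SE, adjusted p = 1.77e-05). Pdia3 (1.13 ± 0.07, adjusted p = 7.39e-05) and Canx (0.62 ± 0.10, adjusted p = 0.00787) were also higher, and Calr was lower (-1.62 ± 0.27, adjusted p = 0.00956). The heavy chains H2-K1 (74.4 and 51.4 against 67.4 and 67.1 CPM) and H2-D1 (153 and 137 against 204 and 211 CPM) did not pass (adjusted p = 1 and 0.0588).

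More of the list differed between the stages of Gnao1 neurons. In mature against immature cells 11 of 14 tested were higher, 1 was lower and 2 did not pass, with a median of 2.24, or 1.86 with genes at 0 set to their bound, against 0.01 over all genes. DESeq2 called 7. B2m was at 528 and 617 against 54.7 and 98.4 CPM (2.99 ± 0.21, SE, adjusted p = 1.32e-06), Tapbp changed by 2.67 (adjusted p = 1.33e-05), Tap2 by 3.07 (adjusted p = 0.00161) and H2-D1 by 1.23 (adjusted p = 0.000762). Tap1 had 0 UMIs in immature cells and was at least 3.19-fold higher (adjusted p = 0.0132), and Calr was lower (-1.88, adjusted p = 0.000666). In immature Gnao1 against immature Gnai2 neurons Pdia3, B2m and Canx, 3 of 11 tested, were higher.

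Within mature Gnao1 neurons the list gave no call by the presence of H2-Mv genes. None of 14 tested passed edgeR's test between H2-Mv-positive and negative cells, 3 were under an unadjusted p of 0.05, and DESeq2 called 0. B2m was at 605 and 756 CPM in positive and 445 and 538 CPM in negative cells, libraries that did not overlap, with a log2 fold change of 0.50 ± 0.16 (SE, adjusted p = 0.305). H2-D1 changed by 0.83 ± 0.25 (adjusted p = 0.238) and H2-K1 by 1.02 ± 0.40 (adjusted p = 0.475). With the library as a block these 3 passed (adjusted p = 0.0098, 0.00911 and 0.0486 in that order). By side of family C 0 of 14 passed, 3 were under an unadjusted p of 0.05 and DESeq2 called 0, while H2-D1 and H2-K1 passed with the block (adjusted p = 0.00775 and 0.0179).

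A list of 12 genes known from basal neurons, which holds Gnao1, Tfap2e and genes of the endoplasmic reticulum such as Hspa5 and Creld2, was treated in the same way. Of its genes 10 were higher and 1 was lower in mature Gnao1 than in mature Gnai2 neurons, against 6.25% and 4.3% of all genes. In mature against immature Gnao1 neurons 8 were higher and 2 lower, against 19% and 16.1%. In immature Gnao1 against immature Gnai2 neurons 9 were higher and 1 lower, against 3.61% and 4.02%. Gnao1, Tfap2e and Robo2 of this list were also markers that set the Gnao1 and Gnai2 classes, so their higher level between those classes was built in. In H2-Mv-positive against negative cells 0 of 12 passed, 4 were under an unadjusted p of 0.05 and DESeq2 called 0. Creld2 (log2 fold change 0.85, adjusted p = 0.162) and Sdf2l1 (0.39, adjusted p = 0.488) passed with the block (adjusted p = 0.000852 and 0.0433).

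Across all 26 classes of cells, the genes whose level followed the summed H2-Mv level most closely were again receptors. Of 8252 genes with at least 50 CPM in some class, the highest Pearson correlations of class levels were those of Vmn2r2 (0.886), Vmn2r6 (0.874), Vmn2r31 (0.869), Vmn2r96 (0.868) and Vmn2r4 (0.856). The classes share 2 libraries, and all 5 genes were highest in mature Gnao1 neurons.

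Outside the neuron classes most H2-Mv UMIs were in 1 unnamed cluster. The 19 other classes, 9090 cells, held 1362 H2-Mv UMIs in 279 cells. The 12 with a cell type name reached 0 to 51.2 CPM over both libraries, the highest in tuft-like cells. Tuft-like cells were shallow, with a median of 1127.5 UMIs, and had markers of other cells as well. Omp was at 176 CPM and Gnai2 at 599 CPM, beside the sustentacular genes Fezf2 at 161 CPM and Cyp2a5 at 644 CPM. The part of other cell types in their H2-Mv level was not tested. Fibroblast-like cells (173, median 9244 UMIs) and ensheathing-like cells (74, median 5316.5 UMIs) held 0, for which the exact intervals reach 2.11% and 4.86% of cells with a UMI. Precursors held 10 UMIs in 9 of 220 cells (4.09%, 1.89 to 7.62) and progenitors 2 in 2 of 80.

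Of the unnamed clusters, 1 of 225 cells, 222 of them from library 1, held 85 H2-Mv UMIs in 66 cells (29.3%, 23.5 to 35.8), at 88.1 CPM in library 1. The cluster with most of the UMIs was another unnamed one, of 288 cells (150 and 138) with a median of 28444.5 UMIs, the deepest set of cells with these genes. It had markers of mature neurons and of supporting cells at once: Omp at 689 CPM, Gnai2 at 1899 CPM and Gnao1 at 69.0 CPM, beside the sustentacular genes Fezf2 at 180 CPM and Cyp2a5 at 543 CPM. Scrublet called 0.694% of its cells doublets, and the part of doublets in its H2-Mv level was not tested. It held 1074 H2-Mv UMIs, 24.3% of all, at 117 and 115 CPM, in 66 cells (22.9%, 18.2 to 28.2).

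In this cluster H2-M10.1, H2-M10.3, H2-M10.5 and H2-M10.6 were mostly on the Vmn2r2 to Vmn2r7 side, as listed above for mature Gnao1 neurons. Among all cells of the cluster, Vmn2r2 to Vmn2r7 led 69 and Vmn2r1 led 32. Of cells with 2 or more UMIs of the gene, Vmn2r2 to Vmn2r7 led 22 of 24 with H2-M10.3, 22 of 23 with H2-M10.5, 8 of 9 with H2-M10.1 and 8 of 8 with H2-M10.6. Of 11 cells with H2-M10.4, 7 were led by Vmn2r2 to Vmn2r7, 3 by Vmn2r1 and 1 by neither. The 1 cell with H2-M1 held 3 UMIs of it and was led by neither, unlike the cells with H2-M1 listed above. The full overlap of members listed above was not found here: counted from 2 UMIs, 4 of 9 cells with H2-M10.1 had H2-M10.3 and 5 had H2-M10.6, and 16 of 23 cells with H2-M10.5 had H2-M10.3. H2-M9 was not detected in it.

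**Figure D4:**
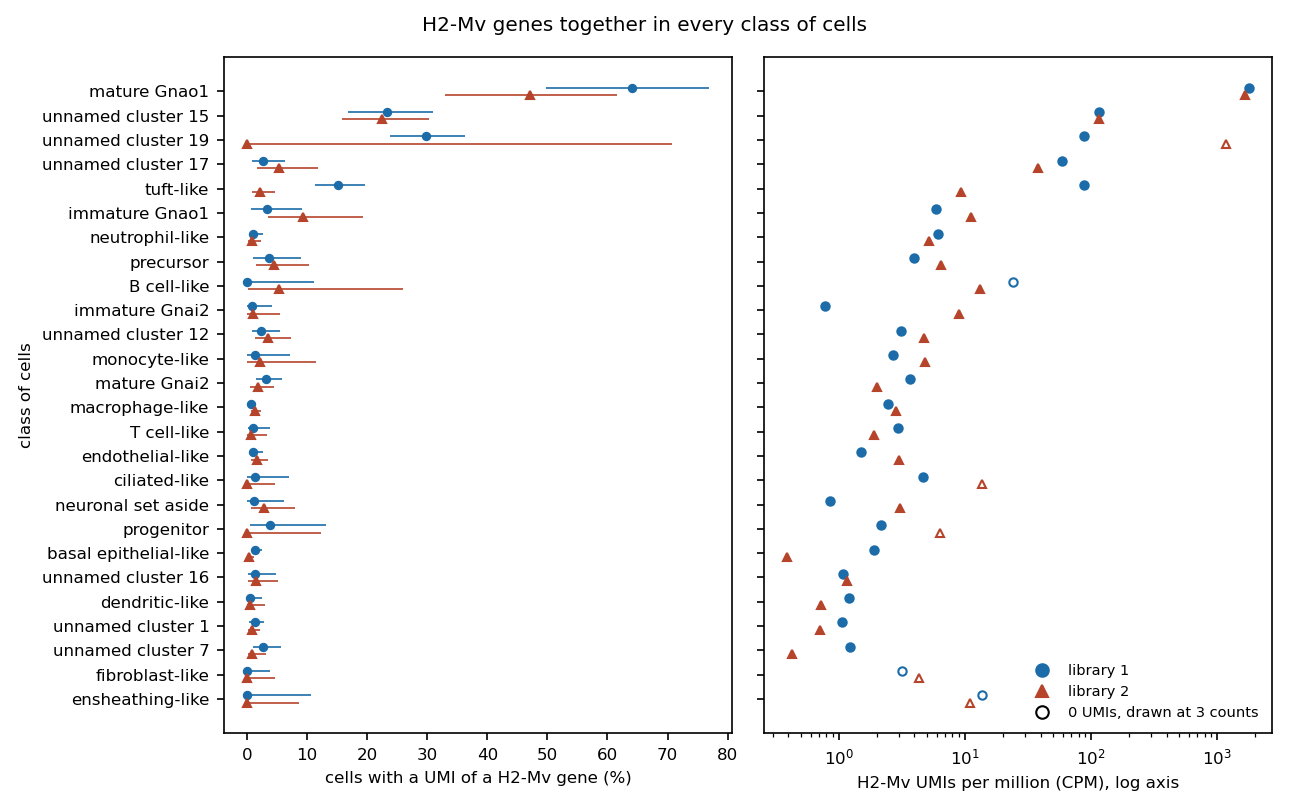
Share of cells with an H2-Mv UMI (left, percent, with exact 95% intervals) and summed H2-Mv level (right, CPM per library) in each of the 26 classes. Mature Gnao1 neurons stand at 55.8% and 1737 CPM, and the unnamed cluster of deep cells follows in CPM.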

How the data were processed

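Per the submitters' processing notes, reads were handled with bcl2fastq and Cell Ranger 4 on mm10, and Seurat 3.2.3 was used by the study. The authors deposited raw UMI counts per gene and barcode in 1 matrix, in which the study's methods say that both libraries were merged with Cell Ranger's aggr step, whose depth setting is not given in the sources used. It holds barcodes called as cells, before the study's quality filter. For reads that match several paralogs, the counting rule is not given in the sources used. Filtering left cells of 200 to 9000 genes with up to 5% of UMIs mitochondrial (median 6668 and 6649 UMIs), which were clustered anew with Seurat 5.3.0 in R 4.3.3 (2000 variable genes, 30 components, resolution 0.8, then 15 components and 1.0 for neurons). H2-Mv, Vmn1r, Vmn2r and Fpr genes were left out of the variable genes, whereas other genes tested could enter the clustering. Clusters were named from at least 3 markers raised 4-fold, so names are rebuilt and may differ from those of the study. Neuronal cells with raised markers of other types (195) were set aside from the 4 classes.

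UMIs were summed per library and class and tested with edgeR 4.0.16 (quasi-likelihood, TMM, at least 10 UMIs over the sums, Benjamini-Hochberg, threshold 0.05), tested on simulated data beforehand, with DESeq2 1.42.0 as an alternative. CPM are the UMIs of a gene over all UMIs of the summed cells, times 1000000. Intervals are exact Clopper-Pearson intervals at 95% or exact intervals of a ratio of counts, and cover counting error only. Sums with the same number come from 1 library and share a capture, so the fits were repeated with library as a block. Deviations of same-numbered sums correlated across genes at 0.022 to 0.104. Differences between the libraries exceeded sampling noise in each class (chi-square per degree of freedom 2.087 to 4.817). Library 1 and library 2 shared 33 barcode sequences, 3 of them after the filter. Scrublet in scanpy 1.11.5 (Python 3.11.15) called 68 (1.19%) and 117 (2.39%) cells doublets, which were kept except in an alternative. Named genes are all members, family C, up to 3 leading Vmn2r genes per member, both gene lists and the 5 largest calls in each direction. Other receptors were named after their values had been seen. The members and lists were chosen with earlier results of these data known.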

Additional observations from a re-analysis of the deposited data

Results flagged for a closer look

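In data outside the comparisons, 3 sets of H2-Mv UMIs lay above the limit that a count of 0 allows. A cluster of 225 unnamed cells, 222 of them from library 1, with Myh11 at 209 CPM and Spp1 at 479 CPM, held 72 UMIs of H2-M10.4 in 57 cells, at most 3 in a cell. Tuft-like cells of library 1 held 63 H2-Mv UMIs in 46 of 304 cells (15.1%), against 6 in 6 of 280 (2.14%) in library 2, at medians of 1127.5 and 1128.5 UMIs per cell. A shallow unnamed cluster of 278 cells with a median of 1124.5 UMIs held 39 H2-Mv UMIs in 10 cells, and Scrublet called 6.12% of its cells doublets. The source of these UMIs was not tested.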

How the results depend on the processing

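No result reversed under any alternative run. Counts of called genes moved by over 1.5 times in these cases, and the cause was not tested. For mature Gnao1 against mature Gnai2 neurons, 1296 became 2482 with the replicate block and 2137 without a filter on low counts. For mature against immature Gnao1 neurons, 3766 became 1815 with DESeq2. For immature Gnao1 against immature Gnai2 neurons, 840 became 1644 with the block, 358 with DESeq2 and 261 with a gate on Gnao1, Gnai2, Omp and Gap43 UMIs. For H2-Mv-positive against negative cells, 60 became 297 with the block, 235 without a filter, 37 with positive cells taken from 1 UMI and 1446 with immature Gnao1 neurons added, and DESeq2 divided its calls into 32 higher and 16 lower, against 47 and 13. For the sides of family C, 41 became 265 with the block and 25 without a filter. The positive share of cells led by Vmn2r2 to Vmn2r7, 73.2%, ranged from 57.1% to 89.3% when either library was left out. Of 335 other values, 309 kept direction and side of the threshold or moved within their error, 18 passed under an alternative and not in the fit reported, 3 were not called by DESeq2 (H2-M9 and H2-M10.2 between mature and immature Gnao1 neurons, Vmn2r1 between H2-Mv-positive and negative cells) and 5 moved. For levels and summed ratios this error was the spread between the 2 libraries, which leaving a library out could hardly exceed. H2-M9 in mature Gnao1 neurons, at 128 CPM over both libraries, thus counted as within error at 0 and at 271 CPM with either library left out. H2-M10.4 in mature Gnao1 neurons moved from 276 to 389 CPM with a mitochondrial limit of 10%, at which H2-M9 and H2-M1 passed against mature Gnai2 neurons (adjusted p = 0.0302 and 0.0392, edgeR). At that limit 561 neuronal cells set aside held 638 H2-Mv UMIs. With 2 libraries, small differences are below what these tests detect.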

Other observations

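H2-Mv UMIs extended beyond the cells kept. Over all 24084 barcodes there were 8126 H2-Mv UMIs in 916 barcodes, against 4426 in 376 of the 10591 cells kept. H2-M9 had 225 UMIs in 6 cells kept and 500 UMIs in 18 of all barcodes, with both libraries represented (147 and 353 UMIs). H2-M11 had 14 UMIs in 5 barcodes and H2-M10.2 had 40 UMIs in 40 barcodes, never more than 1 in each. In immature Gnao1 neurons no cell held more than 3 H2-Mv UMIs, and the cell with 3 was the deepest of its class with such a UMI and was led by Vmn2r2 to Vmn2r7.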
